A study of Homo sapiens with 18 samples.

Results

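Chromatin immunoprecipitation libraries from etoposide-treated KG-1 cells were compared, 2 made with an antibody to DNA topoisomerase II alpha (TOP2A) and 2 with an antibody to DNA topoisomerase II beta (TOP2B). They were chosen by their labels, as the 4 libraries of the 18 samples in the series that were exposed to etoposide and precipitated with antibody 3116 (anti-TOP2A) or 3535 (anti-TOP2B). KG-1 is a human myeloid leukaemia line, so both enzymes were read in 1 proliferating cell line. The etoposide groups (n = 2 libraries for each antibody) had received 100 µM of the drug for 1 h. The 4 matching vehicle libraries (n = 2 for each antibody) came from cells given methanol for 1 h. They are the background here for peak numbers, smallest width, the share at that width, tags per site, bin differences and coincident peaks. In both conditions chromatin was crosslinked with 1% formaldehyde for 10 min and precipitated with 5 µg of the TOP2A or 4 µg of the TOP2B antibody. Repeat precipitations with 1 antibody were pooled into each library before paired-end sequencing with reads of 50 bp. The labels do not say whether replicates 1 and 2 came from separate cultures, so every p-value measures only the spread between these libraries, which may be technical.

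Type II topoisomerases cut both strands of 1 DNA duplex, pass another duplex through the gap and reseal it. TOP2A is made mainly in proliferating cells and acts in replication and chromosome segregation, whereas TOP2B is also present in cells that do not divide and is known for its role at transcribed genes. Etoposide is a topoisomerase II poison: it slows resealing, so that enzyme stays bound to the cut ends, and it acts on both enzymes. The comparison asks whether, with the drug present, the 2 antibodies gave lists of peaks that differed in form, in strength or in place.

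The 2 antibodies did not differ beyond the spread between replicates in how many peaks their libraries gave. On chromosomes 1 to 22 and X, which held 98.4% or more of each MACS list, TOP2A gave 35932 peaks in replicate 1 and 192989 in replicate 2. TOP2B gave 69773 peaks in replicate 1 and 102432 in replicate 2. Both TOP2B values lay between the 2 TOP2A values, so the groups overlapped. The log2 ratio of TOP2A over TOP2B was -0.02 (SD of log2 values 1.71 for TOP2A and 0.39 for TOP2B, n = 2 each), with an exact two-sided permutation p of 1. The smallest p that 2 against 2 libraries can give is 0.333, so no such test here could pass 0.05. In replicate 1 the TOP2A list was 1.94-fold shorter than the TOP2B list, and in replicate 2 it was 1.88-fold longer. The vehicle lists were longer, with 214612 and 246985 TOP2A peaks and 114671 and 294749 TOP2B peaks (replicates 1 and 2). Sequencing depth is not given in the sources used here, and its part in these numbers was not tested.

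Peak form did not separate the antibodies. In every list the smallest width was also the median width, so most peaks were blocks of 1 fixed length. That length was 98 bp in TOP2A replicate 1, 126 bp in TOP2A replicate 2, 102 bp in TOP2B replicate 1 and 100 bp in TOP2B replicate 2. TOP2A replicate 2 stood apart from the other etoposide lists. The vehicle lists had 108 and 128 bp for TOP2A and 116 and 124 bp for TOP2B (replicates 1 and 2). The log2 ratio of median widths with etoposide was 0.14 (SD 0.26 for TOP2A and 0.02 for TOP2B, n = 2 each, exact permutation p = 1). It compares only these fixed lengths and says nothing of the wider peaks.

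With etoposide the share of peaks at exactly the smallest width separated the replicate numbers. It was 58.0% for TOP2A and 58.8% for TOP2B in replicate 1, and 76.5% for TOP2A and 78.2% for TOP2B in replicate 2. Within a number the antibodies thus lay close over all peaks, with a TOP2A minus TOP2B difference of -0.766 percentage points in replicate 1 and -1.66 in replicate 2, while the replicates of 1 antibody differed far more (SD 13.1 for TOP2A and 13.7 for TOP2B). The difference between the antibodies was -1.21 percentage points (n = 2 each, exact permutation p = 0.667). Among peaks with a score of at least 100 the shares were 61.9% for TOP2A and 42.4% for TOP2B in replicate 1 and 77.6% and 79.5% in replicate 2, so the antibodies were no longer close in replicate 1, and the difference turned to 8.79 percentage points (exact permutation p = 1). The vehicle libraries had 71.1% and 70.0% for TOP2A and 79.5% and 81.0% for TOP2B (replicates 1 and 2). There the share followed the antibody and not the replicate number.

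Most peaks wider than that block were little wider. Their median width was 115 bp and 167 bp in the TOP2A libraries (replicates 1 and 2) and 122 bp and 121 bp in the TOP2B libraries. The widest peak was 3572 bp in TOP2A replicate 1, 4678 bp in TOP2A replicate 2, 5932 bp in TOP2B replicate 1 and 1439 bp in TOP2B replicate 2. Peaks of 1000 bp or more numbered 28, 16, 80 and 1 in the same order, so that TOP2B held both the most and the fewest. All peaks together covered 4.03 Mb in TOP2A replicate 1, 27.9 Mb in TOP2A replicate 2, 8.21 Mb in TOP2B replicate 1 and 11.1 Mb in TOP2B replicate 2. Those lengths are between 0.133% and 0.921% of the length of these chromosomes as the lists show it.

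The MACS score, the authors' own value for each peak, also split by number rather than by antibody. Its median was 162 for TOP2A and 84.5 for TOP2B in replicate 1, and 857 for TOP2A and 625 for TOP2B in replicate 2. A score of at least 100 was reached by 70.8% of TOP2A and 43.6% of TOP2B peaks in replicate 1, and by 97.5% and 97.4% in replicate 2. Because scores are used only within a list, these values describe each list's own scores and are not a comparison of binding. The lowest score was alike, at 50.2 and 50.04 for TOP2A and 50.2 and 50.31 for TOP2B (replicates 1 and 2). Within 3 of the 4 lists the fixed-width blocks scored higher than the wider peaks, with medians of 189 against 141 (TOP2A replicate 1), 895 against 711 (TOP2A replicate 2) and 652 against 379 (TOP2B replicate 2). In TOP2B replicate 1 the order was the other way round, at 84.5 against 109.

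**Figure D1:**
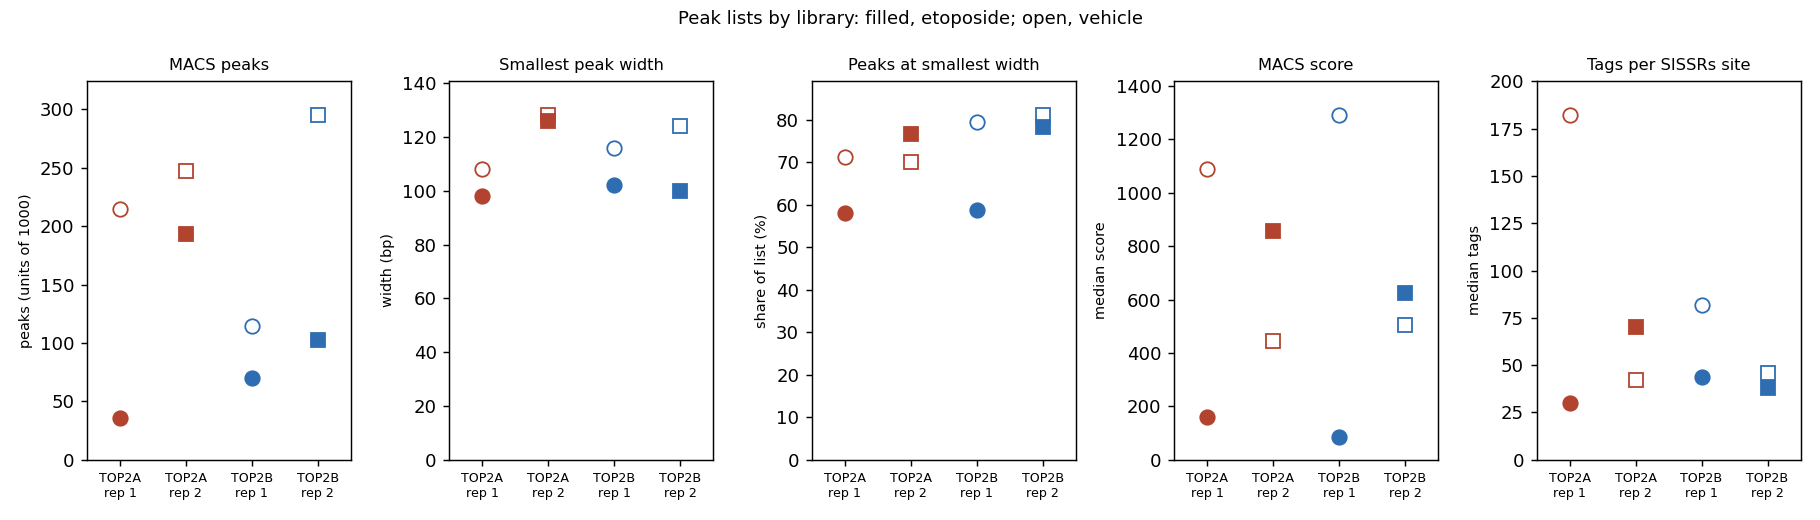
Each panel plots 1 value per library on a linear axis from 0 (peaks in units of 1000, smallest width in bp, share of peaks at that width in %, median MACS score, median tags per site), with filled symbols for etoposide and open symbols for the vehicle, circles for replicate 1 and squares for replicate 2. With etoposide the share at the smallest width was 58.0% and 58.8% in replicate 1 and 76.5% and 78.2% in replicate 2, whichever antibody was used.

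Tags per site did not differ between the antibodies beyond the spread between replicates. The values come from the second caller, SISSRs, whose lists have no header. They are read here as the number of sequenced tags at each binding site. TOP2A gave 64360 sites in replicate 1 and 191779 in replicate 2, and TOP2B gave 112911 and 104197. The median site held 30 tags in TOP2A replicate 1, 70 in TOP2A replicate 2, 44 in TOP2B replicate 1 and 38 in TOP2B replicate 2. The TOP2A libraries were again the lowest and the highest, with TOP2B between them. The log2 ratio of TOP2A over TOP2B was 0.16 (SD 0.86 for TOP2A and 0.15 for TOP2B, n = 2 each, exact permutation p = 1). It was 1.47-fold lower for TOP2A in replicate 1 and 1.84-fold higher in replicate 2. The vehicle medians were 182 and 42 tags for TOP2A and 82 and 46 tags for TOP2B.

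The spread of tags among sites was wide in all 4 libraries. The 5th and 95th percentiles were 12 and 159 tags in TOP2A replicate 1, 21 and 182 in TOP2A replicate 2, 14 and 125 in TOP2B replicate 1, and 12 and 95 in TOP2B replicate 2. The single strongest site held 16978, 31278, 12869 and 9251 tags in the same order, and in both replicate numbers the TOP2A maximum was above the TOP2B one. The strongest 1% of sites held 7.44% of all tags in sites for TOP2A and 5.98% for TOP2B in replicate 1, and 4.59% and 4.74% in replicate 2. Summed over sites, tags came to 3385184 and 16027961 for TOP2A and to 6196161 and 4585846 for TOP2B (replicates 1 and 2), a sum that grows with the number of sites and says little of depth.

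The 2 callers overlapped less in replicate 1. Sites that lay in a MACS peak of their own library made up 55.3% of TOP2A and 61.5% of TOP2B sites in replicate 1, against 96.8% and 93.4% in replicate 2. Sites outside any MACS peak were weaker in each library, with median tags of 16 outside against 59 inside (TOP2A replicate 1), 25 against 71 (TOP2A replicate 2), 22 against 63 (TOP2B replicate 1) and 15 against 39 (TOP2B replicate 2). In the other direction, 95.3% or more of the peaks of each MACS list held a site.

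Regional density was compared as the share of each list's peaks in bins of 1 Mb. No bin was called different between TOP2A and TOP2B in the main fit, which did not use the replicate number. Of 2880 bins tested with limma, 0 (0%) passed a Benjamini-Hochberg adjusted p of 0.05, and the smallest adjusted p was 0.115. At an unadjusted p under 0.05 limma gave 145 bins (5.03%). With the replicate number as a block, limma called 4 of 2880 bins, 3 with TOP2A higher and 1 with TOP2B higher (smallest adjusted p 0.0207). Both TOP2A libraries lay above both TOP2B libraries in 438 bins (15.2%) and below them in 456 (15.8%), so the 2 directions were near equal. The median bin differed by 0.20 on the log2 scale between the group means, and 20 bins differed by more than 2-fold. In a fit with the 4 vehicle libraries, the difference between antibodies with etoposide was set against that with the vehicle, and 0 of 2887 bins were called by limma, with 104 (3.6%) at an unadjusted p under 0.05. Leaving out TOP2A replicate 2 gave 35 called bins between the antibodies and 21 against the vehicle, and leaving out TOP2B replicate 2 gave 9 and 0, each time with the lone library assumed to vary like the others.

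The 1 Mb profiles were alike across the 4 libraries, and closest between the 2 with the most peaks. As a description over 2880 bins, which share copy number, mappability and base composition, Pearson's r of log2 densities was 0.823 for TOP2A replicate 2 with TOP2B replicate 2. It was 0.707 for TOP2A replicate 2 with TOP2B replicate 1, 0.652 for TOP2A replicate 1 with TOP2B replicate 2, and 0.576 for the pair of replicate 1. The replicates of 1 antibody correlated at 0.661 (TOP2A) and 0.679 (TOP2B), inside the range of the 4 pairs of different antibodies. The correlation rose with the number of peaks behind each bin: the median bin held 12 peaks in TOP2A replicate 1, 24 in TOP2B replicate 1, 35 in TOP2B replicate 2 and 66 in TOP2A replicate 2. Counting error alone at those medians is 28.9%, 20.4%, 16.9% and 12.3% (SD). Among the 100 densest bins of each library, 59 were shared by all 4, and 58 of those lay on chromosome 8.

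The bins with the largest differences each had 1 library well below the rest. Since none was called in the main fit, they are described without a claim that they differ. Only bins averaging 20 peaks or more, and with no overlap between the groups, were considered. In each of the 3 bins where TOP2A was higher, TOP2B replicate 1 was low. The bin at 45000001 to 46000000 of chromosome 9 held 6.40 and 4.61 of every 10000 TOP2A peaks (replicates 1 and 2) and 1.29 and 4.20 of every 10000 TOP2B peaks (log2 difference 1.20, SE 0.30, limma adjusted p = 0.115). The bin at 12000001 to 13000000 of chromosome 7 held 5.01 and 3.58 for TOP2A and 1.15 and 3.12 for TOP2B, per 10000 peaks (log2 difference 1.13, limma adjusted p = 0.521). The bin at 142000001 to 143000000 of chromosome 1, which touches the long peak-free stretch of that chromosome, held 6.68 and 5.13 against 1.72 and 5.08 (log2 difference 0.97, limma adjusted p = 0.468).

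In each of the 3 bins where TOP2B was higher, it was TOP2A replicate 1 that was low. The bin at 51000001 to 52000000 of chromosome 13 held 1.11 and 3.73 of every 10000 TOP2A peaks and 5.73 and 4.10 of every 10000 TOP2B peaks (log2 difference -1.18, SE 0.30, limma adjusted p = 0.115). The bin at 7000001 to 8000000 of chromosome 1 held 1.11 and 3.16 against 4.16 and 4.39 (log2 difference -1.12, limma adjusted p = 0.521). The bin at 109000001 to 110000000 of chromosome 4 held 1.67 and 3.68 against 5.45 and 5.47 (log2 difference -1.09, limma adjusted p = 0.115). The low libraries rest on 4, 4 and 6 TOP2A peaks here, and on 9, 8 and 12 TOP2B peaks in the bins above. In replicate 2 the antibodies thus lay farthest apart in the bin on chromosome 4 and in the one at 7000001 of chromosome 1, and nearer in the other 4.

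By whole chromosome the antibodies also overlapped. The groups were apart on 3 of 23 chromosomes (13%), each time with TOP2B higher, and on 0 (0%) with TOP2A higher. These were chromosome 6 (5.89% and 5.89% of TOP2A peaks, 6.27% and 5.93% of TOP2B peaks, replicates 1 and 2), chromosome 8 (9.98% and 9.99% against 10.4% and 10.1%) and chromosome 12 (3.94% and 4.11% against 4.19% and 4.15%). All 3 had the smallest exact permutation p possible, 0.333, and an adjusted p of 0.958. Log2 differences ranged from -0.05 to 0.12 over the 23 chromosomes. The highest was on the gene-dense chromosome 19, where TOP2B replicate 1 had 1.81% of its peaks against 2.22% in TOP2B replicate 2 and 2.21% and 2.15% in TOP2A. TOP2B replicate 1 was the lowest of the 4 libraries on 10 chromosomes and the highest on 10.

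**Figure D2:**
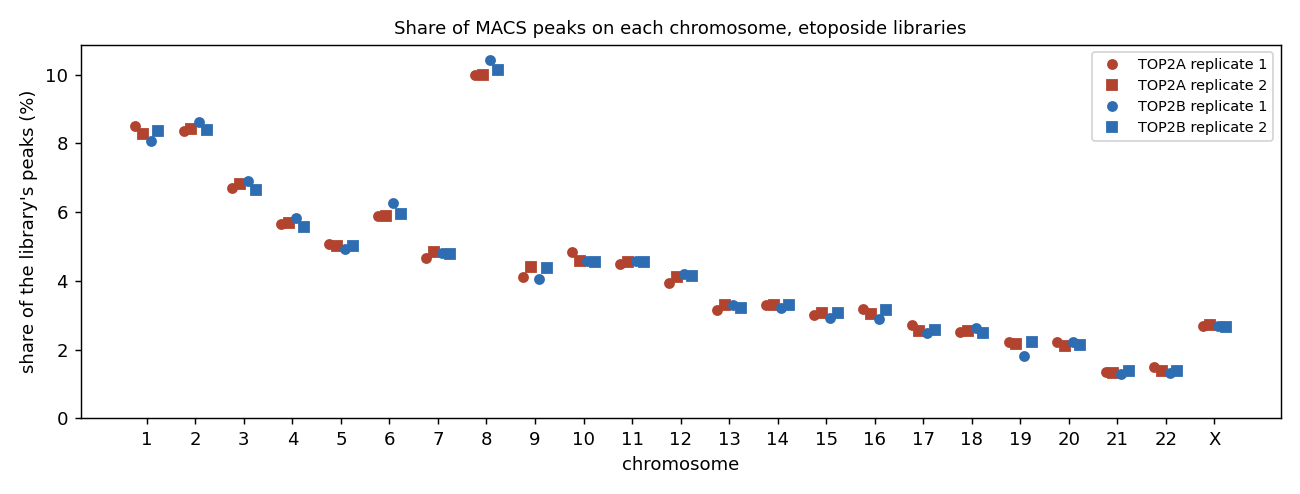
The share of each etoposide library's MACS peaks (%, linear axis from 0) on chromosomes 1 to 22 and X, with TOP2A in red, TOP2B in blue, circles for replicate 1 and squares for replicate 2. The 4 libraries lie close together on each chromosome, from 2.66% to 2.73% on X, and chromosome 8 has the most peaks, at 9.98% to 10.4%.

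Few TOP2A and TOP2B peaks coincided, and how many did depended on the pair of libraries. Peaks that overlapped by at least 1 bp formed 614 pairs in replicate 1, which are 1.67% of the TOP2A list and 0.725% of the TOP2B list. In replicate 2 they formed 3573 pairs, 1.84% of the TOP2A and 3.49% of the TOP2B list. Across numbers, TOP2A replicate 1 and TOP2B replicate 2 gave 556 pairs (1.54% and 0.539%), and TOP2A replicate 2 and TOP2B replicate 1 gave 1410 pairs (0.726% and 2.02%). The libraries of 1 antibody coincided as rarely, with 787 pairs for TOP2A (2.19% of replicate 1 and 0.405% of replicate 2) and 744 for TOP2B (1.06% and 0.723%).

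Shares of overlap move with list length, so the density of close pairs was set against its surroundings. This ratio divides the pairs of midpoints within 100 bp, per bp of distance, by the pairs at 10 to 100 kb. It is 1 where close pairs are as dense as more distant ones, and its interval covers counting error only. For libraries of the same number it was 1.81 (95% interval 1.63 to 2.01, 365 close pairs) in replicate 1 and 1.92 (1.85 to 1.99, 3022 close pairs) in replicate 2. Across numbers it was 1.71 (1.56 to 1.86, 505 close pairs) for TOP2A replicate 1 with TOP2B replicate 2, but 1.03 (0.974 to 1.10, 1095 close pairs) for TOP2A replicate 2 with TOP2B replicate 1. The 2 libraries of 1 antibody gave 1.11 (1.02 to 1.20) for TOP2A and 1.17 (1.09 to 1.27) for TOP2B. Of the 4 TOP2A with TOP2B pairs, 3 therefore had a higher ratio than replicates of the same enzyme, and the other had the lowest of the 6. This order changed with each list shortened by score to the 35932 peaks of the shortest. Fixed-width blocks and wider peaks differed in score, so such a cut may change the mix of widths as well as the length. The 2 were not tested apart. The ratio was then 1.89 (1.63 to 2.17) in replicate 1, above both pairs of replicates, but 0.948 (0.764 to 1.16) in replicate 2, 1.19 (0.983 to 1.42) for TOP2A replicate 1 with TOP2B replicate 2 and 1.14 (0.940 to 1.37) for the reverse, beside 0.905 (0.725 to 1.12) and 1.20 (0.994 to 1.44) for replicates of TOP2A and of TOP2B.

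With the vehicle the same ratio was 1.27 and 1.20 for the same number, 1.08 and 1.09 across numbers, and 1.09 for both antibodies between their own replicates. Over whole lists the ratio was higher with etoposide in both pairs of the same number. The exact permutation p was 0.333, the smallest possible for 2 pairs against 2. The vehicle lists were longer, however. With lists of equal length the etoposide ratio was 1.89 in replicate 1 but 0.948 in replicate 2. Without pairs that had aligned edges, described below, it was 1.38 and 0.925. The vehicle pairs were not treated in either way, so whether the rise would remain was not tested. Across numbers 1 of the 2 etoposide pairs lay above the vehicle pairs and 1 below (exact permutation p = 1).

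Close pairs were densest at the shortest distances. Within 10 bp the ratio was 4.62 for TOP2A replicate 1 with TOP2B replicate 2, 3.51 for replicate 1 of both and 3.07 for replicate 2 of both, against 1.14 for TOP2A replicate 2 with TOP2B replicate 1. At 10 to 50 bp it was 1.65, 1.62, 2.27 and 1.02 in the same order. At 100 to 200 bp it was 1.09, 1.03, 0.871 and 1.02, back near 1. In replicate 1 it then stayed above 1, at 1.13 to 1.23 from 200 bp to 10 kb, above the other 3 pairs of antibodies.

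**Figure D3:**
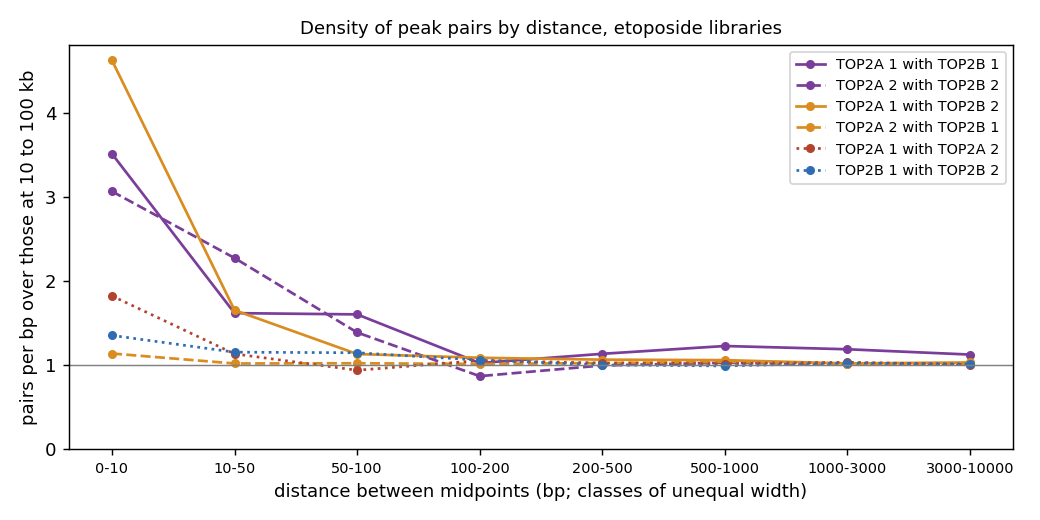
Density of peak pairs in 8 distance classes of unequal width (bp, horizontal), over the density at 10 to 100 kb (vertical, linear from 0), for the 6 pairs of etoposide libraries, with a grey line at 1. The curves of 3 TOP2A with TOP2B pairs start at 4.62, 3.51 and 3.07 and fall to near 1 beyond 100 bp, whereas TOP2A replicate 2 with TOP2B replicate 1 starts at 1.14.

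The ratio was highest among peaks wider than the fixed block. Where both peaks were wider than their list's smallest width the ratio was 4.63 in replicate 1 (179 close pairs), 6.74 in replicate 2 (586), 4.48 for TOP2A replicate 1 with TOP2B replicate 2 (132) and 1.28 for TOP2A replicate 2 with TOP2B replicate 1 (136). Where 1 of the 2 was wider it was 1.10, 2.30, 1.53 and 0.965 in the same order, and where both were at the smallest width it was 1.19, 1.23, 1.26 and 1.05. The order from fixed blocks to wider peaks was therefore clear in replicate 2 and in TOP2A replicate 1 with TOP2B replicate 2. Replicates of 1 antibody gave 2.05 (TOP2A) and 1.89 (TOP2B) for wider peaks, and 0.955 and 1.12 for fixed blocks. Among overlapping pairs in replicate 1, 73.8% of TOP2A and 78.3% of TOP2B peaks were wider than the block, against 42.0% and 41.2% of the whole lists. In replicate 2 these shares were 46.4% and 40.2%, against 23.5% and 21.8%.

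In replicate 2 the overlapping peaks were aligned to the base pair. The 2 lists differ by 26 bp in smallest width. Of 3573 overlapping pairs, 487 had the same start, 520 had the same end, 612 had a TOP2A start exactly 26 bp before the TOP2B start, and 637 had a TOP2A end exactly 26 bp after the TOP2B end. Any other start offset within 60 bp occurred in 10.3 pairs on average and 23 at most, and any other end offset in 9.26 on average and 19 at most. In all, 1694 pairs (47.4%) had at least 1 edge aligned in 1 of these ways. Without them the ratio in replicate 2 was 0.925 (95% interval 0.879 to 0.974) in place of 1.92. That setting was chosen after seeing the data and takes pairs out of the close distances only, so it errs on the low side.

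The other pairs of antibodies had fewer aligned edges. In replicate 1, where the smallest widths differ by 4 bp, 37 starts and 35 ends were offset by exactly that difference, 16 starts and 14 ends were equal, and 95 of 614 pairs (15.5%) had an aligned edge. Without those the ratio was 1.38. For TOP2A replicate 1 with TOP2B replicate 2, whose widths differ by 2 bp, 48 of 556 pairs (8.63%) were aligned, and the ratio without them was 1.54. In this pair 82 overlaps (14.7%) had both edges within 5 bp of each other, so the peaks nearly coincided without a fixed offset. That share was 3.42% in replicate 1 and 2.82% between the replicates of TOP2B, whose smallest widths also differ by 2 bp. It is not compared with pairs whose smallest widths differ by over 5 bp, where 2 fixed blocks cannot come that close at both edges. TOP2A replicate 2 with TOP2B replicate 1 had 25 aligned overlaps of 1410 (1.77%), and replicates of 1 antibody had 4.19% (TOP2A) and 2.42% (TOP2B). Aligned edges were thus most frequent between libraries of different antibodies and the same number. The vehicle libraries showed the same order without the drug, with aligned edges in 20.1% and 13.6% of overlaps between antibodies of the same number (replicates 1 and 2), 1.19% and 1.44% across numbers, and 1.31% and 1.19% between replicates of 1 antibody. Their cause was not tested.

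**Figure D4:**
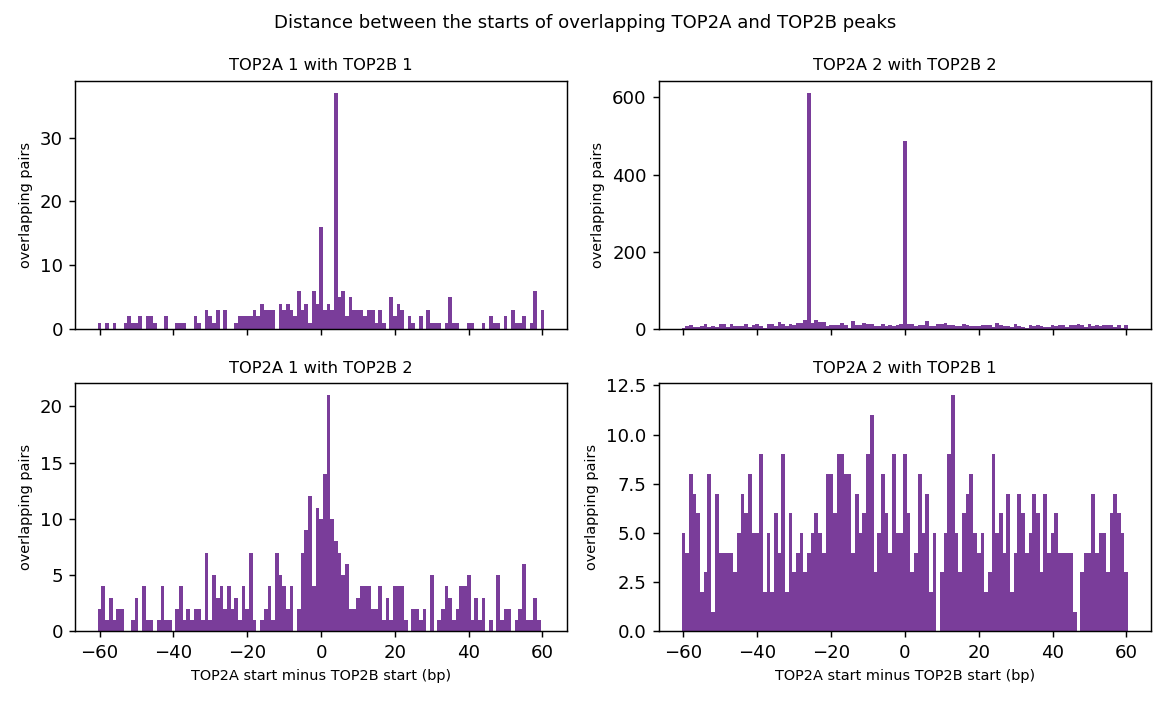
Number of overlapping peak pairs (vertical, linear, own scale in each panel) by TOP2A start minus TOP2B start (bp, horizontal) in the 4 pairs of etoposide libraries. Replicate 2 shows 2 single-base spikes, 612 pairs at -26 bp and 487 at 0, and replicate 1 has 37 pairs at 4 bp, while TOP2A replicate 2 with TOP2B replicate 1 has no such spike.

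Coincident peaks of replicate 1 were gathered in few places. Of its 614 overlapping pairs, 295 (48.0%) lay within 1 Mb of the longest stretch without any peak on their chromosome, which on many chromosomes includes the centromere, against 2.72% of all TOP2A and 1.81% of all TOP2B peaks. The 10 fullest bins of 1 Mb held 269 of the pairs (43.8%). In replicate 2 the share beside these stretches was 3.19% and the share in 10 bins 3.05%. It was 9.53% for TOP2A replicate 1 with TOP2B replicate 2 and 2.98% for the reverse. Without both the aligned edges and the peaks within 1 Mb of these stretches, the ratio was 1.04 in replicate 1, 0.917 in replicate 2, 1.50 for TOP2A replicate 1 with TOP2B replicate 2 and 1.01 for TOP2A replicate 2 with TOP2B replicate 1. Chromosome 8 held 16.8% to 19.2% of the coincident pairs in the 4 combinations, against 9.98% to 10.4% of all peaks in the 4 lists. Between replicates of 1 antibody it held 18.4% (TOP2A) and 21.0% (TOP2B), so this was not particular to pairs of different antibodies.

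Coincident sites did not carry more tags in both antibodies. In replicate 1, sites shared by TOP2A and TOP2B had a median of 34 TOP2A tags, against 30 at other sites, and 38 TOP2B tags, against 44. In replicate 2 they had 72 TOP2A tags against 70, and 32 TOP2B tags against 38. Across numbers, TOP2A replicate 1 with TOP2B replicate 2 gave 38 against 30 and 33 against 38, and TOP2A replicate 2 with TOP2B replicate 1 gave 65 against 70 and 42 against 44. TOP2B tags were therefore lower at shared than at other sites in all 4 combinations, which rest on 2 TOP2B lists. Sites shared between the 2 TOP2B libraries were lower too, with 41 tags against 44 in replicate 1 and 34 against 38 in replicate 2. The lower value was thus not particular to sites shared with TOP2A. Within sites shared by TOP2A and TOP2B the 2 tag counts rose together to different degrees. Spearman's rho, as a description, was 0.45 over 1889 pairs of sites in replicate 1 and 0.22 over 3846 in replicate 2. Across numbers rho was 0.58 over 1831 pairs (TOP2A replicate 1) and 0.37 over 2984 (TOP2A replicate 2). These pairs share the position and its base composition.

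Merged over the 4 libraries, peaks formed regions of which 386350 (98.2%) had a peak in 1 library, 7079 (1.80%) in 2, 139 in 3 and 11 in all 4. Of the regions of exactly 2 libraries, 3462 joined TOP2A and TOP2B of replicate 2, 1328 joined TOP2A replicate 2 and TOP2B replicate 1, 481 joined TOP2A replicate 1 and TOP2B replicate 2, and 430 joined both of replicate 1. Those of 1 antibody were 719 for TOP2A and 659 for TOP2B.

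Of the 11 regions found in all 4 libraries, 6 lay together on chromosome 6, between 24650945 and 24667116 (hg19), a span of 16172 bp of which they covered 1714 bp. By general knowledge this is the position of TDP2, whose enzyme removes topoisomerase II protein from DNA ends; no annotation of hg19 was used here, and the gene was named after its values were seen. The peaks at these 6 blocks were between 137 and 383 bp wide and stood at the same positions with both antibodies. Summed over the blocks, sites held 11382 tags in TOP2A replicate 1, 33947 in TOP2A replicate 2, 18871 in TOP2B replicate 1 and 5533 in TOP2B replicate 2. The antibodies overlapped here too.

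The leading block, 24650945 to 24651346, held 3709 and 10247 TOP2A tags and 5344 and 1786 TOP2B tags (replicates 1 and 2). Those are 124, 146, 121 and 47.0 times the median site of the library. In TOP2A replicate 1 and TOP2B replicate 1 its MACS score of 3100 was the highest of the list, a value that other peaks shared. In TOP2A replicate 2 all 6 blocks had that score, against a highest of 3233. Many peaks of that list equalled or exceeded it, since with ties averaged it stood at the 97.5th percentile. The lowest block in TOP2B replicate 2 scored 460, at the 36.0th percentile of its list. All 4 vehicle lists had a peak at each of the 6 blocks, so the blocks were neither particular to 1 antibody nor to the drug.

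**Figure D5:**
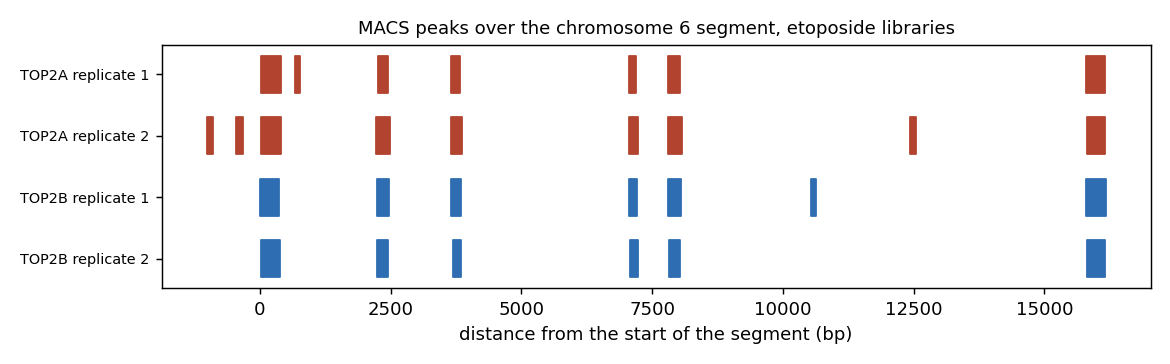
MACS peaks (bars) of the 4 etoposide libraries over the chromosome 6 segment, by distance from its first base (bp, linear), TOP2A in red and TOP2B in blue. The 6 blocks stand at the same places in all 4 libraries over 16172 bp, with at most 3 further peaks within or just beside the segment in any library.

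Of the other 5 regions found in all 4 libraries, 3 lay within 1 Mb of a peak-free stretch. Those on chromosomes 1 (121354754 to 121355479), 7 (61975997 to 61977035) and 16 (46425487 to 46430058) were 129979, 921566 and 39676 bp from the long peak-free stretch of their chromosome. The region on chromosome 16 held 4 and 1 TOP2A peaks and 4 and 5 TOP2B peaks (replicates 1 and 2), and 425, 2352, 1091 and 772 tags in TOP2A replicates 1 and 2 and TOP2B replicates 1 and 2. The region on chromosome 21 (11186405 to 11187101), 1772324 bp from that chromosome's stretch, held 263, 1089, 360 and 390 tags in the same order. The region near the start of chromosome 4 (42384 to 42792) held 46, 124, 39 and 48 tags, beside library medians of 30, 70, 44 and 38, and was the only one of the 11 without a peak in any vehicle list.

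Outside the chromosome 6 blocks, the strongest coincident regions differed between the pairs. By the lower of the 2 score percentiles, the leading ones in replicate 1 were 42384141 to 42386680 and 42596698 to 42600581 of chromosome 10, with TOP2A peaks 853 and 883 bp wide and TOP2B peaks 2540 and 3884 bp wide. Both lay within 1 Mb of the peak-free stretch, 28824 and 241381 bp away. For TOP2A replicate 1 with TOP2B replicate 2 it was 102955255 to 102955461 of chromosome 13 (peaks of 109 and 117 bp, percentiles 98.6 and 98.7). For TOP2A replicate 2 with TOP2B replicate 1 it was 54882215 to 54882426 of chromosome 2 (126 bp each, percentiles 99.2 and 97.8). In replicate 2 all 3 leading regions were chromosome 6 blocks. None of these 4 regions had a peak in any other of the 8 lists.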

How the data were processed

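The 4 etoposide and 4 vehicle libraries were used; mitoxantrone and input samples were not analysed here. Per the submitters' processing notes, Bowtie2 2.2.5, bedtools 2.26.0, MACS 1.4 and hg19 were used. The authors deposited, per library, a MACS peak list whose score is their own value (used to rank or filter within that list). They also deposited a SISSRs list without a header, whose values look like a count of tags, a fold ratio and a p-value for each site. Each list belongs to 1 library. How the callers were set, whether input was used, and read totals: not given in the sources used here.

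Starts were made 1-based. Midpoints were counted in 1 Mb bins and divided by list length (per 10000 peaks), after adding a pseudocount of 0.5 peaks, and log2 values were compared with limma (version 3.58.1 under R 4.3.3, with trend and robust settings). Bins averaging under 5 peaks were left out, and a call needed an adjusted p (Benjamini-Hochberg) of at most 0.05. Single values were compared with exact two-sided permutation tests. Overlap meant at least 1 bp. Python 3.11.15 was used with matplotlib 3.10.9, scipy 1.17.1, pandas 2.3.3 and numpy 2.4.6. The bin and pair steps were tested on simulated data. Named bins were the 3 with the largest log2 difference in each direction; named regions were those of all 4 libraries and the 3 per pair with the highest lower score percentile. The libraries, lists and settings were chosen with earlier results of these data known. Replicate numbers were not taken to pair libraries in the main fit. Deviations of same-numbered libraries from their group means correlated at 0.0216 over 2880 bins. Counting error lowers such a value, so it does not exclude pairing. Aligned edges and the share at the smallest width did follow the replicate number with etoposide. With the vehicle, aligned edges followed it too, but the share followed the antibody. The lists are on hg19 and the gene tables at hand on another build, so no gene was assigned from a table and no sequence is printed. TDP2 was named from general knowledge alone.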

Additional observations from a re-analysis of the deposited data

How the results depend on the processing

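Of 96 alternative values, 77 moved by less than the spread between replicates (counts, by less than 1.5 times) and 19 moved by more. For peak number, peak width, share at the smallest width and tags per site this spread is so wide that staying within it shows no stability: leaving out 1 replicate gave log2 ratios of -1.23 to 1.19 for peak number, -0.04 to 0.32 for median width and -0.45 to 0.78 for tags per site, and differences of -10.9 to 8.50 percentage points for the share at the smallest width, which was 8.79 at a score of at least 100 in place of -1.21. Leaving out 1 replicate gave 0 to 35 called bins between the antibodies and 0 to 21 against the vehicle, the highest each time without TOP2A replicate 2. With the replicate number as a replicate block 4 bins were called by limma, 3 with TOP2A higher and 1 with TOP2B higher (smallest adjusted p 0.0207), 0 were called against the vehicle, and the log2 ratio of peak number stayed at -0.02; every other bin setting gave 0 calls. The share of the shorter list that coincided, a median of 1.84% over the 6 pairs, was 0.870% at a reciprocal overlap of 50% and 3.46% with SISSRs sites widened to 200 bp. The close-pair ratio of the same number, 1.86 as the geometric mean of both pairs, was 1.76 at a score of at least 100, 2.00 with SISSRs sites, 2.22 within 50 bp, 1.51 without peaks sharing a start or end and 1.34 with lists of equal length. With lists of equal length (35932 peaks) it was 1.89 in replicate 1 but 0.948 in replicate 2. In settings chosen after seeing the data it was 1.13 without aligned edges, 1.68 without the 1 Mb beside peak-free stretches and 0.977 without either. The ratio of replicates of 1 antibody, 1.14, was 1.53 with SISSRs sites, 1.24 within 50 bp, 1.04 with lists of equal length, 1.10 without aligned edges and 1.07 without either. The ratio across numbers, 1.33, ranged over 1.03 to 1.71, its 2 pairs, when 1 library was left out. The causes of these moves were not tested. Depth is unknown and limits what can be said of peak numbers.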
